A study of Mus musculus with 23 samples.

Results

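The 10 genes *Hmox1*, *Hmox2*, *Blvra*, *Blvrb*, *Fth1*, *Ftl1*, *Fech*, *Slc40a1*, *Slc48a1* and *Tfrc* take heme apart, insert iron into it, or store and move iron and heme. They are the rows of the count tables whose Ensembl identifiers carry these names in the GRCm39 annotation, 10 of 56941 genes listed and of 33025 genes with a count in any library. All 10 passed the filter on low counts that left 14488 genes for testing, *Blvrb* mainly through its CRE libraries. The genes were selected from earlier results of the same comparison of CRE and RFP libraries in these data. Their differences between CRE and RFP are therefore given as a description, with folds and standard errors but without a p of their own.

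RNA was sequenced from primary hippocampal cultures of newborn (P0) mice homozygous for Nedd8cKO, an allele with LoxP sites around exons 2 and 3 of *Nedd8*, the gene of a ubiquitin-like protein that is attached to the cullins. The line was made in FVB/N eggs, and the reporting summary of the study lists C57BL/6N. The cultures were infected on day 1 in vitro with lentivirus that carried, under the neuronal Synapsin1 promoter, either red fluorescent protein (RFP, 11 libraries) or the CRE recombinase tagged with RFP (CRE, 12 libraries), and were harvested on day 13 according to the methods and after 12 days according to the labels. Every library, RFP included, came from mice with the LoxP sites, so that an effect of CRE itself and the loss of *Nedd8* cannot be told apart. The labels give the first of 2 numbers in a library name, 1 to 3, without saying what it is, and it is read here as the culture. Nothing says that libraries of 1 culture came from separate dishes or animals, and p-values then measure only the spread between these libraries, which may be technical.

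The comparison used 21 libraries, 11 CRE and 10 RFP, without CRE 3-3 and RFP 3-2, as in the count table of the study. Counts per library ran from 7430401 to 17112815. CRE 1-3 and RFP 2-4 stood apart from the other 19 libraries, with 0.261% and 3.43% of counts from mitochondrial genes against 6.997% to 11.1%. Results of the members that rest on them are given with and without them. *Nedd8*, the deleted gene, lay between 44.1 and 76.0 CPM (counts of a gene scaled to the size of the library) in the RFP libraries and between 5.92 and 17.96 CPM in the CRE libraries, without overlap.

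Heme oxygenases open the heme ring and release its iron, carbon monoxide and biliverdin, which biliverdin reductases turn into bilirubin. HMOX1 is the inducible oxygenase and HMOX2 the form that is present in neurons at rest. Free iron is bound in ferritin, a shell of heavy and light chains, or leaves the cell through ferroportin, while transferrin receptor brings iron in. The amounts of these proteins are set in part by iron regulatory proteins, which bind hairpins called iron responsive elements (IREs) when iron is scarce, block translation from a hairpin ahead of the coding sequence and protect a messenger with hairpins behind it. Transcription of *Hmox1* and of both ferritin chains is also held down by BACH1, which is displaced by heme, and raised by NRF2, a factor whose breakdown depends on KEAP1 and the cullin CUL3, and both bind DNA with a small MAF protein.

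The hairpins of the members are shown because they divide the 10 genes by the position of the element rather than by the measured change. A motif of a C, 5 bases, the loop CAGUGN and 5 bases that can pair with the first 5 (G-U pairs allowed) was searched in the GENCODE canonical transcript of 9 members on GRCm39, and *Fech* was not searched. It was present ahead of the coding sequence of *Fth1*, *Ftl1* and *Slc40a1*, and 4 times behind that of *Tfrc*. Of 21770 canonical coding transcripts, 0.11% held it in the 5′ UTR and 0.574% in the 3′ UTR. The 30 bases around each match are written 5′ to 3′ with the loop in capitals.
*Fth1*, 5′ UTR, chr19:9960095-9960124, plus strand: uuuccugcuucaaCAGUGCuugaacggaac
*Ftl1*, 5′ UTR, chr7:45109203-45109232, minus strand: ugucuugcuucaaCAGUGUuugaacggaac
*Slc40a1*, 5′ UTR, chr1:45964625-45964654, minus strand: ccaacuucagcuaCAGUGUuagcuaaguuu
*Tfrc*, 3′ UTR, chr16:32450036-32450065, plus strand: uaauuaucggaagCAGUGCcuuccauaauu
*Tfrc*, 3′ UTR, chr16:32450415-32450444, plus strand: acauuaucgggagCAGUGUcuuccauaaug
*Tfrc*, 3′ UTR, chr16:32450480-32450509, plus strand: ucuauaucggagaCAGUGAucuccauaugu
*Tfrc*, 3′ UTR, chr16:32450527-32450556, plus strand: uaauuaucgggaaCAGUGUuucccauaauu
The windows of *Fth1* and *Ftl1* were identical at 27 of 30 positions, and that of *Slc40a1* matched each of them at 13 of 30. No match was found in *Hmox1*, *Hmox2*, *Blvra*, *Blvrb* or *Slc48a1*, which says only that these letters are not in the canonical transcripts.

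The second set of sequences is the extended site that NRF2 or BACH1 bind with a small MAF protein, written TGACTCAGCA or TGAGTCAGCA, which was searched on both strands of the 10000 bases before the canonical start of the same 9 genes. It was chosen with the levels of these genes known. Of 21770 coding genes, 9.4% held a match in this window. Matches lay ahead of *Hmox1*, *Fth1* and *Ftl1*, and the windows below give the strand of the gene, with the 10 bases of the site in capitals.
*Hmox1*, 9665 bases before the start, chr8:75810566-75810595: gtgccttttcTGCTGAGTCAaggtccgggg
*Hmox1*, 3864 bases before the start, chr8:75816367-75816396: agacagatttTGCTGAGTCAccctctgttc
*Fth1*, 4007 bases before the start, chr19:9955993-9956022: aggagcagaaTGCTGAGTCAcggtggaaca
*Ftl1*, 1103 bases before the start, chr7:45110392-45110421: gagctcagcgTGACTCAGCAgaactggcct
*Hmox2*, *Blvra*, *Blvrb*, *Slc40a1*, *Slc48a1* and *Tfrc* had no match within this distance. A shorter form of the site, TGACNNNGC, was searched on both strands from 250 bases before to 50 bases after the start. It matched once each in *Hmox2* and *Blvra*, in none of the other 7 genes searched, and in 12.5% of 21770 promoters. The members were chosen with their folds known, so nothing is read from which of them hold a match. Binding at these sites was not measured in these libraries.

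Per length of the transcript, the members spanned about 3 orders of magnitude in the control cultures. *Fth1*, the ferritin heavy chain, was the most abundant at 1395 ± 154 CPM per kb in the RFP libraries (SD, n = 10). *Ftl1*, the light chain, followed at 266 ± 27.6 and *Tfrc*, the transferrin receptor, at 72.9 ± 21.4 CPM per kb. *Slc48a1* came next at 43.4 ± 6.08 and *Hmox1* at 24.2 ± 6.49 CPM per kb. The ranges of *Fth1* and *Ftl1* overlapped with no other member, whereas that of *Tfrc* overlapped with those of *Slc48a1* and *Hmox1* only through RFP 2-4. *Fech* at 7.12 ± 0.914, *Hmox2* at 5.41 ± 0.976 and *Blvra* at 4.49 ± 1.23 CPM per kb formed a group with overlapping ranges. *Blvrb* at 2.17 ± 1.09 and *Slc40a1* at 1.18 ± 1.05 CPM per kb stood last, and their ranges overlapped with each other and with that of *Blvra*. The range of *Slc40a1* also overlapped with that of *Hmox2*. In the CRE libraries *Hmox1* moved from rank 5 to rank 3 of the 10 and *Blvrb* from rank 9 to rank 5, while *Blvra* stood last.

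In CRE cultures *Hmox1*, *Blvrb*, *Fth1*, *Ftl1* and *Slc40a1* were higher on average, and *Hmox2* and *Blvra* were lower. At an adjusted p under 0.05 in edgeR's quasi-likelihood test over all genes, 7 of the 10 members were called, 5 higher and 2 lower. Of all 14488 genes tested, 30.2% were called, 16.4% higher and 13.8% lower, and since the members were chosen from this contrast nothing is read from their count. The median log2 fold change of the members was 0.59, against 0.02 over all genes tested. Without CRE 1-3 and RFP 2-4, 9 of the 10 were called, the 7 and *Fech* and *Tfrc*, beside 38.1% of all genes tested. The CPM ranges of CRE and RFP did not overlap for 3 members, *Hmox1*, *Blvrb* and *Fth1*, and for 4.72% of all genes tested.

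**Figure D1:**
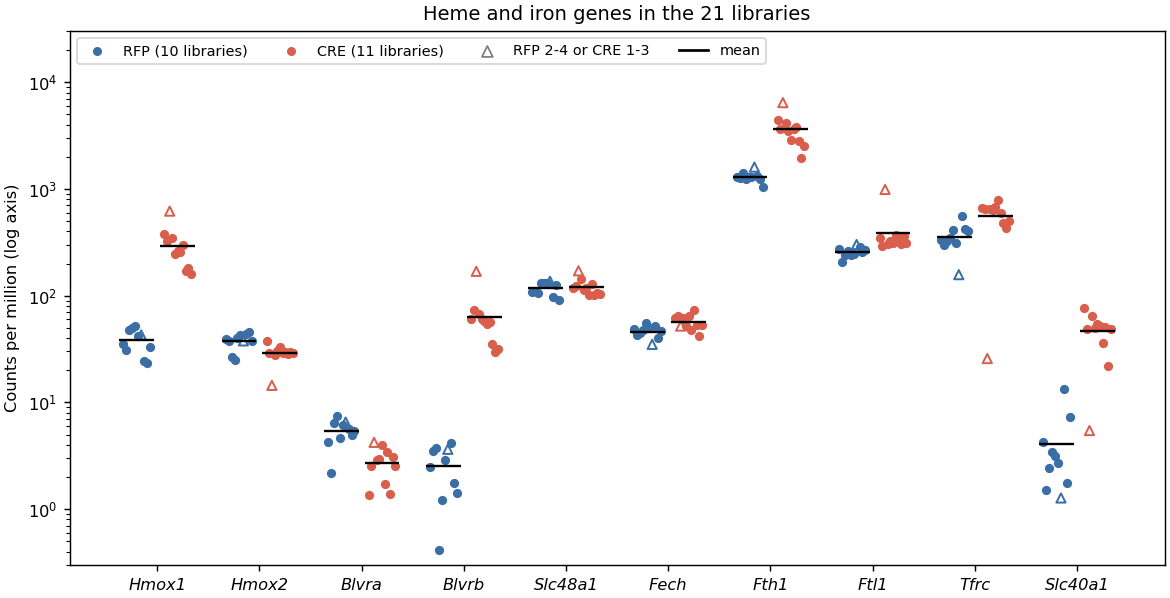
CPM (log axis) of the 10 members in the 10 RFP libraries (blue) and the 11 CRE libraries (red), with a point for each library, a black line at the mean and an open triangle for RFP 2-4 or CRE 1-3. The 2 groups are apart for *Hmox1*, *Blvrb* and *Fth1*, and CRE 1-3 lies far below the other CRE libraries for *Tfrc* and *Slc40a1* and above them for *Ftl1*.

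*Hmox1*, on chromosome 8 (75820241 to 75827217, GRCm39) with 5 exons, codes for the inducible heme oxygenase. In RFP libraries it ranged from 23.4 CPM through a median of 38.4 to 51.8 CPM. In CRE libraries it ranged from 159.6 CPM through a median of 261 to 619 CPM. The lowest CRE library, CRE 3-4, was above the highest RFP library, RFP 2-2, and the 619 CPM were those of CRE 1-3, next to 381 CPM in CRE 1-1. The means were 38.1 ± 10.2 CPM in RFP (SD, n = 10) and 295 ± 130 CPM in CRE (SD, n = 11), a log2 fold change of 2.93 ± 0.22 (SE). Without the 2 libraries that stood apart the log2 fold change was 2.78.

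*Hmox2*, the constitutive oxygenase that accounts for most heme oxygenase of the brain at rest, lay lower in CRE cultures. It ranged from 24.9 through 38.5 to 45.6 CPM in RFP and from 14.4 through 29.2 to 37.2 CPM in CRE libraries (lowest, median and highest). The groups overlapped, with the low RFP values in RFP 2-1 and RFP 1-3 and the low CRE value in CRE 1-3. Its log2 fold change was -0.40 ± 0.14 (SE). *Hmox2* shares 6248 bases of exon with *Cdip1* on the opposite strand, 85.8% of the 50-base windows of its canonical transcript occur in transcripts of other genes, and the strand setting of the counting was not given, so that its count is uncertain. *Cdip1* itself had 222 CPM in RFP and 205 CPM in CRE libraries on average.

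Set against each other within a library and per length, *Hmox1* exceeded *Hmox2* by a ratio of 2.26 to 8.89 in RFP libraries (median 4.12). In CRE libraries the ratio was 24.1 to 189 (median 38.8), and 24.1 to 54.8 without CRE 1-3. The ratios of the groups did not overlap. Without division by length the 2 genes were alike in RFP libraries, at 38.1 and 37.6 CPM on average. The size of the ratio thus rests on the canonical lengths, 1577 bases for *Hmox1* and 6948 for *Hmox2*. How much of the *Hmox2* length could be counted is uncertain, so it is not shown that control cultures held more *Hmox1* transcript.

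*Blvrb*, biliverdin reductase B on chromosome 7 (27147275 to 27165569) with 5 exons, is a reductase of flavins and of the beta isomer of biliverdin. It was near the floor of the control cultures, with 0.417, 2.67 and 4.13 CPM as lowest, median and highest RFP values, which were 5 to 53 counts. In CRE libraries the corresponding values were 29.4, 58.0 and 169 CPM. Every CRE library was above every RFP library, the 169 CPM were those of CRE 1-3, and the 3 libraries of culture 3 were the lowest of the CRE group. The means rose from 2.51 ± 1.26 CPM (SD, n = 10) to 63.4 ± 37.9 CPM (SD, n = 11), and the log2 fold change of 4.62 ± 0.35 (SE) was the highest of the 10 members. It was 4.43 without CRE 1-3 and RFP 2-4. *Blvrb* did not pass the filter among the RFP libraries alone, so that it entered the test mainly through its CRE libraries.

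*Blvra*, biliverdin reductase A on chromosome 2 (126912556 to 126939017), is the enzyme that makes the bilirubin IX-alpha of adult tissue from the product of the heme oxygenases. It had 2.19, 5.51 and 7.42 CPM in RFP libraries and 1.37, 2.86 and 4.22 CPM in CRE libraries (lowest, median and highest). The groups overlapped, since RFP 1-2 was within the range of the CRE libraries. The log2 fold change was -0.99 ± 0.26 (SE), at 15 to 103 counts per library. Per length, *Blvrb* was at 0.0580 to 1.64 times *Blvra* within the RFP libraries (median 0.527) and at 9.87 to 45.6 times within the CRE libraries (median 24.1). The order of the 2 reductases was therefore the other way round in every CRE library compared with 9 of the 10 RFP libraries.

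**Figure D2:**
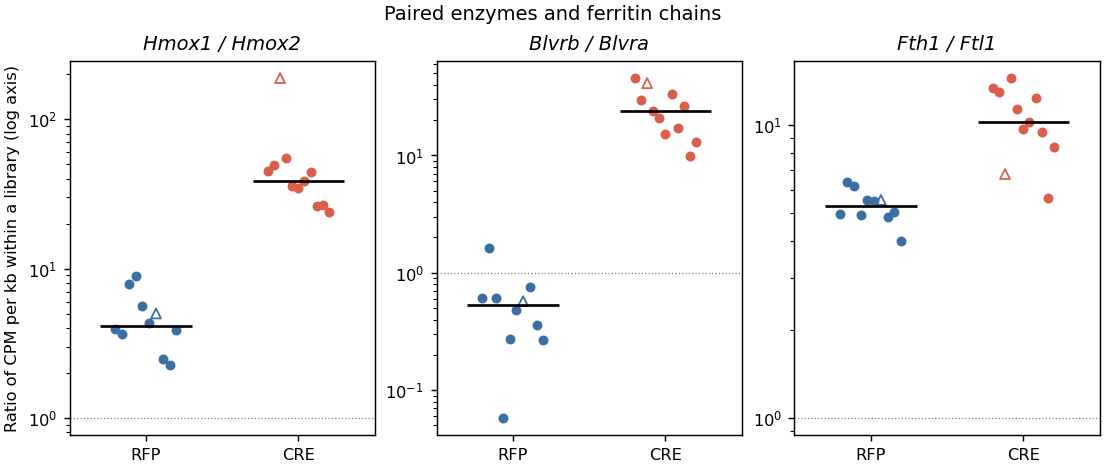
Ratio within each library (log axis) of *Hmox1* to *Hmox2*, *Blvrb* to *Blvra* and *Fth1* to *Ftl1*, each as CPM per kb, for 10 RFP (blue) and 11 CRE libraries (red), with the median as a black line and open triangles for RFP 2-4 and CRE 1-3. The first 2 ratios do not overlap between the groups, with medians of 4.12 and 38.8 for the oxygenases, and the third does in CRE 3-2.

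*Fech*, ferrochelatase, puts iron into protoporphyrin in the last step of heme synthesis. It had 35.0, 47.2 and 55.5 CPM in RFP libraries and 41.5, 53.5 and 72.9 CPM in CRE libraries (lowest, median and highest), and the groups overlapped over most of their ranges. Its log2 fold change was 0.28 ± 0.11 (SE), which did not pass the threshold in the 21 libraries and passed it in the 19. *Slc48a1*, which moves heme from endosomes and lysosomes into the cytosol, had a median of 119 CPM in RFP and of 117 CPM in CRE libraries, with ranges of 91.0 to 136 and 101 to 171 CPM. The log2 fold change of 0.02 ± 0.11 (SE) was the closest to 0 among the members. *Slc48a1* shares 2396 bases of exon with *Hdac7* on the opposite strand, and 87.0% of the 50-base windows of its transcript occur in *Hdac7*. The 2 genes could be mixed if the counting ignored strand, and *Hdac7* had 21.3 CPM in RFP and 29.8 CPM in CRE libraries on average.

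*Fth1*, the ferritin heavy chain, oxidises iron for storage and is on chromosome 19 (9957911 to 9962462). It ranged from 1041 through 1285 to 1601 CPM in RFP libraries and from 1956 through 3608 to 6433 CPM in CRE libraries. The lowest CRE library, CRE 3-2, was above the highest RFP library, RFP 2-4, and the highest CRE library was CRE 1-3. The means were 1296 ± 143 CPM in RFP (SD, n = 10) and 3614 ± 1186 CPM in CRE (SD, n = 11), a log2 fold change of 1.46 ± 0.15 (SE). In absolute terms this was the largest difference of the 10 genes. Of the 50-base windows of its transcript 39.4% occur in *Gm36913*, which overlaps it on the opposite strand, or in a pseudogene, but these genes together held at most 5.62 CPM in any of the 21 libraries.

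*Ftl1*, the ferritin light chain on chromosome 7 (45107367 to 45109308), helps iron to form a mineral core. It had 205, 258 and 301 CPM as lowest, median and highest RFP values and 294, 324 and 988 CPM as the corresponding CRE values. The 988 CPM were those of CRE 1-3, and the other 10 CRE libraries lay between 294 and 367 CPM. The log2 fold change was 0.56 ± 0.18 (SE) in the 21 libraries and 0.32 without CRE 1-3 alone. *Ftl1* has many processed copies, 90.5% of its 50-base windows occur in 23 other genes, and the 19 of these in the count tables held 1.44 to 6.58 CPM together, so that reads lost to such copies cannot be seen in the counts.

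Heavy and light chain did not change by the same ratio. Per length, *Fth1* stood at 4.01 to 6.39 times *Ftl1* in RFP libraries (median 5.27) and at 5.63 to 14.4 times in CRE libraries (median 10.3). The 2 ranges overlapped only through CRE 3-2, at 5.63, and CRE 1-3 lay within the CRE range.

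*Slc40a1*, ferroportin, is the only known exporter of iron from mammalian cells and lies on chromosome 1 (45947211 to 45965683, minus strand). It ranged from 1.27 through 2.93 to 13.2 CPM in RFP libraries and from 5.45 through 50.1 to 76.5 CPM in CRE libraries. The groups overlapped only because of CRE 1-3, whose 5.45 CPM were 40 counts, and because of RFP 3-1 and RFP 3-4 at 13.2 and 7.26 CPM. The next lowest CRE library, CRE 3-2, had 22.04 CPM. The means were 4.09 ± 3.64 CPM in RFP (SD, n = 10) and 46.4 ± 19.5 CPM in CRE (SD, n = 11), a log2 fold change of 3.50 ± 0.41 (SE) and of 3.53 in the 19 libraries. RFP 3-2, which was left out of the comparison, had 28.0 CPM, above every RFP library within it.

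*Tfrc*, the transferrin receptor on chromosome 16 (32427556 to 32451612) with 19 exons, takes up iron bound to transferrin. It had 157, 339 and 562 CPM as lowest, median and highest RFP values and 25.7, 636 and 783 CPM as the corresponding CRE values. The lowest value in each group came from RFP 2-4 and CRE 1-3, the libraries with a low mitochondrial share. The log2 fold change of 0.61 ± 0.30 (SE) did not pass the threshold. Without both libraries it was 0.65 and passed, with 379 ± 82.6 CPM in RFP (SD, n = 9) and 605 ± 107 CPM in CRE (SD, n = 10). Without CRE 1-3 alone it was 0.74 and passed, and without RFP 2-4 alone it was 0.54 and did not.

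**Figure D3:**
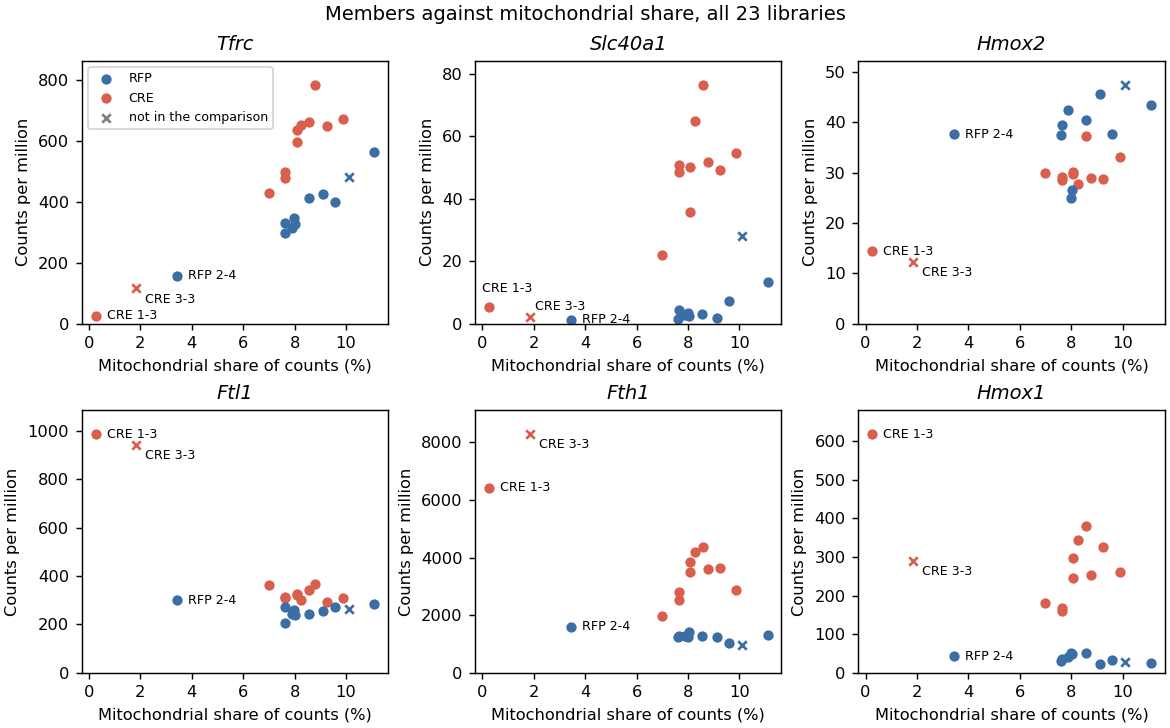
CPM of 6 members against the share of counts from mitochondrial genes in all 23 libraries, RFP in blue and CRE in red, with crosses for the 2 libraries outside the comparison. The libraries below 4% mitochondrial counts, CRE 1-3, CRE 3-3 and RFP 2-4, have the lowest *Tfrc* values at 25.7, 115 and 157 CPM, and CRE 1-3 and CRE 3-3 have the highest *Ftl1* values at 988 and 943 CPM.

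The spread of the members between libraries of a group was compared through the deviations of log2 CPM from the group means. Among the 45 pairs of members these went together most for *Slc40a1* and *Tfrc*, with a Pearson r of 0.82 over 21 libraries and 0.63 over 19, and for *Hmox1* and *Fth1*, with 0.78 and 0.66. *Ftl1* and *Tfrc* were most opposed, at -0.89 over 21 libraries, and at 0.06 over 19 libraries this was gone. These values are a description, since all genes of a library share its depth, scaling and RNA quality. The genes whose deviations were most like those of *Hmox1* were *Slc38a3*, an amino acid transporter, and *Ezr*, which codes for ezrin, at 0.93 and 0.91 (0.90 and 0.87 over 19 libraries). For *Fth1* they were *Tnfrsf1a*, a receptor of tumour necrosis factor, and *Wwc1*, at 0.96 and 0.94 (0.92 and 0.91). For *Slc40a1* they were *Lpar6* and *Pals2*, at 0.91 and 0.89 (0.80 and 0.77). For *Tfrc* they were the mitochondrially encoded *mt-Nd4* and *mt-Nd1*, both at 0.99, and at 0.93 and 0.94 over 19 libraries.

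Whether the difference between CRE and RFP varied with the culture was a question that the choice of genes did not use. *Hmox1* had log2 fold changes of 3.43 ± 0.24 in culture 1, 2.49 ± 0.21 in culture 2 and 2.65 ± 0.24 in culture 3 (SE). *Blvrb* had 4.80 ± 0.53, 4.78 ± 0.47 and 3.73 ± 0.53, and *Slc40a1* had 4.15 ± 0.72, 4.17 ± 0.64 and 2.45 ± 0.67. *Fth1* had 1.79 ± 0.20, 1.34 ± 0.18 and 1.01 ± 0.20. These 4 genes were higher in CRE for each of the 3 numbers. *Hmox2* was lower, at -0.38 ± 0.25, -0.28 ± 0.23 and -0.54 ± 0.27, as was *Blvra*, at -0.67 ± 0.46, -1.05 ± 0.43 and -1.20 ± 0.50 (SE). CRE and RFP libraries were set together here by number alone. Same-numbered CRE and RFP libraries correlated at only 0.037 to 0.13 by culture, so that these folds are not shown to be differences within 1 culture. *Ftl1* was at 0.99 ± 0.30, 0.32 ± 0.28 and 0.28 ± 0.32 (SE). Its first value includes CRE 1-3 at 988 CPM, beside 294 to 343 CPM in the other CRE libraries of culture 1. *Fech* was at 0.39 ± 0.19, 0.31 ± 0.18 and 0.09 ± 0.21 (SE). For culture 3 neither fold exceeded its SE. *Slc48a1* was at 0.31 ± 0.16, -0.22 ± 0.15 and -0.01 ± 0.17, and *Tfrc* at 0.61 ± 0.54, 1.11 ± 0.50 and 0.01 ± 0.57 (SE).

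In a quasi-likelihood F-test of the culture by condition terms, 0 of the 10 members passed an adjusted p under 0.05 in edgeR, beside 0.0069% of all genes tested, and 2 had an unadjusted p under 0.05, as did 4.11% of all genes tested, *Hmox1* at 0.0098 and *Fth1* at 0.034. DESeq2 also called 0. Without CRE 1-3 and RFP 2-4, *Tfrc* passed with an adjusted p of 0.023 in edgeR, beside 0.245% of the genes tested in those 19 libraries. In that set its CRE libraries lay between 649 and 662 CPM in culture 1, against 296 to 331 CPM in RFP. In culture 3 the CRE libraries lay between 427 and 498 CPM and the RFP libraries between 400 and 562 CPM.

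**Figure D4:**
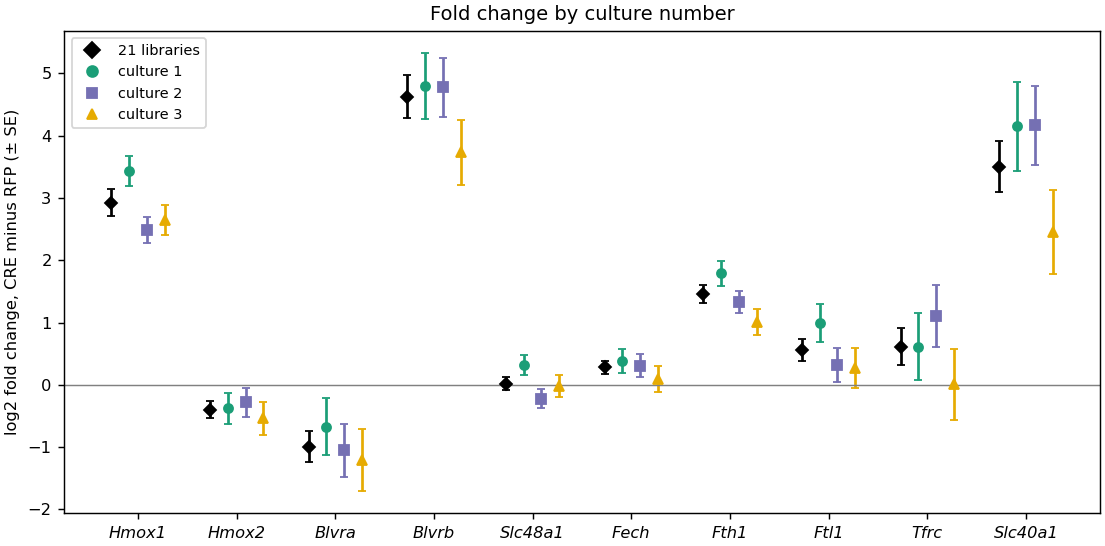
Log2 fold change (CRE minus RFP, ± SE) of the 10 members over the 21 libraries (black) and in cultures 1, 2 and 3 (green, purple and yellow). *Hmox1*, *Blvrb*, *Fth1* and *Slc40a1* are above 0 in each culture, and *Tfrc* is at 0.01 in culture 3 and 1.11 in culture 2.

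The control libraries were also compared between cultures, for the 9 members that passed the filter among the RFP libraries alone (*Blvrb* did not). Under edgeR's test 0 of the 9 passed at an adjusted p under 0.05, beside 0.892% of all genes tested, and 3 had an unadjusted p under 0.05, as did 10.2% of all genes tested. *Hmox1* averaged 37.9 CPM in culture 1 (n = 3), 46.6 CPM in culture 2 (n = 4) and 27.1 CPM in culture 3 (n = 3), with an adjusted p of 0.17 in edgeR and 0.0497 in DESeq2, where 2.54% of genes were called. *Slc40a1* averaged 2.72, 2.64 and 7.41 CPM (adjusted p = 0.39 in edgeR) and *Slc48a1* 109, 133 and 104 CPM (adjusted p = 0.47 in edgeR). *Tfrc* averaged 317, 308 and 462 CPM, and passed only in the set of 19 libraries, without RFP 2-4, with an adjusted p of 0.029 in edgeR, where 1.86% of genes were called.

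Other genes of heme and iron metabolism, taken from 5 lists of pathway members that were set with earlier results of these data known, were read from the same fit. Of 86 genes 70 were tested, and 25 were higher in CRE, 5 lower and 40 not past the test, with a median log2 fold change of 0.27. Of all genes tested, as given above, 16.4% were called higher and 13.8% lower, with a median of 0.02. The genes named from each list are its called genes with the smallest p. Of 22 genes of iron uptake, storage and export 15 were tested, and 9 were higher, 0 lower and 6 not past the test, with a median of 0.45. *Heph*, hephaestin, and *Cp*, ceruloplasmin, are the copper oxidases that pass exported iron on to transferrin. *Heph* rose from 1.60 to 35.9 CPM, a log2 fold change of 4.50 ± 0.46 (SE, adjusted p = 4.8e-08 in edgeR). It held 0 to 38 counts in RFP libraries and passed the filter mainly through CRE libraries. Genes of this kind could hardly be called lower. Nothing is therefore read from the balance of higher and lower calls or the medians of the 5 lists, or from the p of *Heph*. *Cp* rose from 4.67 to 48.5 CPM, by 3.36 ± 0.50 on the log2 scale (SE, adjusted p = 1.1e-05 in edgeR). *Trf*, which codes for transferrin itself, rose from 1.92 to 11.8 CPM, by 2.60 ± 0.33 (SE, adjusted p = 1.0e-06 in edgeR).

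Of 11 tested genes of heme synthesis 2 were higher and 3 lower, with a median log2 fold change of 0.02. Of all genes tested, 16.4% were called higher and 13.8% lower, and nothing is read from so small a count. *Alas1*, the first and rate-limiting enzyme of heme synthesis outside red cells, averaged 30.9 CPM under RFP and 32.2 CPM under CRE, with 0.04 ± 0.15 on the log2 scale (SE, adjusted p = 0.88 in edgeR). *Uros*, uroporphyrinogen synthase, fell by 1.23 on the log2 scale, from 23.8 to 10.2 CPM (adjusted p = 1.5e-05 in edgeR). *Ppox*, the enzyme before ferrochelatase, rose from 15.5 to 21.4 CPM, and the mitochondrial transporters *Abcb10* and *Tmem14c* fell from 33.3 to 25.2 and from 28.3 to 22.05 CPM. Of 12 genes of heme transport and binding 8 were tested, and 5 did not pass, 0 were lower and 3 were higher, beside the same shares of all genes. The 3 were *Hebp2*, a heme-binding protein, from 1.59 to 4.201 CPM, and *Flvcr1*, named as a heme exporter, from 17.2 to 26.8 CPM. The third was *Lrp1*, the receptor that clears hemopexin with its heme, from 404 to 543 CPM.

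Among genes that sense iron and heme, 6 of 13 tested were higher, 1 lower and 6 not past the test, beside the 16.4% and 13.8% of all genes tested, with a median log2 fold change of 0.43. *Bach1*, the repressor that heme displaces, rose from 39.2 to 80.7 CPM, by 1.02 ± 0.14 on the log2 scale (SE, adjusted p = 2.4e-06 in edgeR). *Nfe2l2*, which codes for NRF2, rose from 30.01 to 57.2 CPM, by 0.91 ± 0.19 (SE, adjusted p = 0.00054 in edgeR), and the small MAF genes *Mafg* and *Mafk* rose from 133 to 251 and from 9.53 to 21.5 CPM. *Keap1* had 63.8 CPM in RFP and 63.3 CPM in CRE libraries (adjusted p = 0.92 in edgeR). The iron regulatory proteins did not pass the test, with log2 fold changes of -0.16 ± 0.11 for *Aco1* and -0.33 ± 0.27 for *Ireb2* (SE, adjusted p = 0.29 and 0.39 in edgeR). *Fbxl5*, the iron-sensing receptor that sends the protein of *Ireb2* to breakdown, had 0.29 ± 0.19 (SE, adjusted p = 0.27 in edgeR). *Ireb2* had 8.04 CPM in CRE 1-3, beside 103 to 168 CPM in the other CRE libraries of the comparison. In RFP 2-4 it had 75.4 CPM, beside 143 to 192 CPM in the others. *Fbxl5* had 9.54 CPM in CRE 1-3, beside 34.2 to 51.6 CPM. The *Ireb2* and *Fbxl5* results thus rest in part on libraries that stood apart, and fits without these are not given here. *Neo1*, neogenin, a receptor that also binds hemojuvelin, fell by 0.41 on the log2 scale. Of 23 tested genes of iron-sulfur cluster assembly 5 were higher, 1 lower and 17 not past the test, with a median of 0.02, a share of calls no higher than the 30.2% of all genes tested. Among them *Fdx1*, a ferredoxin, rose from 5.84 to 11.03 CPM, *Hspa9*, a mitochondrial chaperone, from 249 to 388 CPM and *Nfs1*, the cysteine desulfurase, from 16.1 to 23.4 CPM, while *Nubpl* fell from 2.74 to 1.33 CPM.

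**Figure D5:**
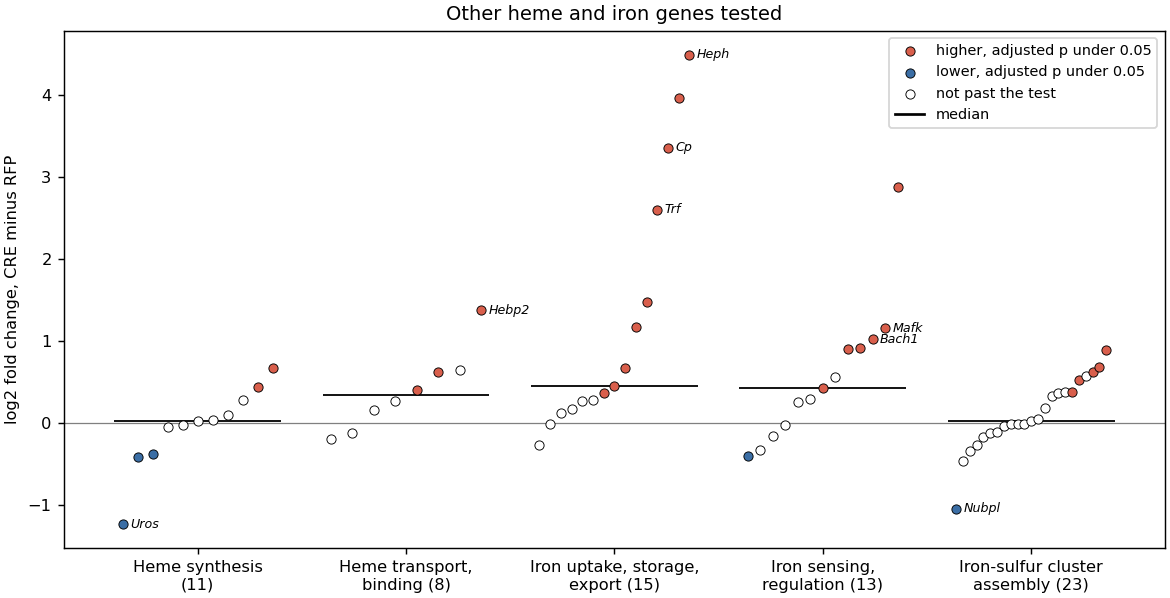
Log2 fold change (CRE minus RFP) of the 70 other heme and iron genes tested, a point for each gene, in 5 lists with the number tested in brackets, red for higher and blue for lower at an adjusted p under 0.05, white for not past the test, and a line at the median. The iron uptake, storage and export list has 9 red and 0 blue points, and the heme synthesis list 2 red and 3 blue. Genes that passed the filter mainly through CRE libraries, such as *Heph*, could hardly be blue. Of all genes tested, 16.4% were called higher and 13.8% lower.

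The cells of these cultures were read from marker lists, because macrophages, vessel-associated cells and red cells also carry genes named above. In bulk libraries fewer cells of a type and less RNA per cell cannot be told apart. Calls among the markers stand beside the 16.4% higher and 13.8% lower of all genes tested. The summed level of 14 neuron markers lay between 9281 and 10681 CPM in RFP and between 4855 and 8623 CPM in CRE libraries (from 5570 CPM without CRE 1-3), with *Map2* at 1829 and 1167 CPM and *Syt1* at 1144 and 616 CPM, and 8 of the 14 were called lower and 1 higher. The sum of 10 astrocyte markers was 3739 to 8024 CPM in RFP and 1673 to 5368 CPM in CRE libraries, with *Slc1a2* at 2095 and 1229 CPM and *Slc1a3* at 1082 and 1025 CPM. Of the 10, 4 were called lower and 2 higher, the latter *Sox9* from 72.7 to 149.5 CPM and *Gja1* from 190.7 to 297 CPM. For 12 markers of the oligodendrocyte lineage the sum was 685 to 2058 CPM in RFP and 448 to 1981 CPM in CRE libraries (up to 1079 CPM without CRE 1-3), with *Olig1* at 734 and 645 CPM and *Pdgfra* at 254 and 42.3 CPM, and 8 of the 11 tested were called lower and 0 higher. The cultures thus held RNA of glia as well as of neurons, and the promoter that drove CRE is a neuronal one.

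Markers of microglia and macrophages, cells known for *Hmox1* and *Slc40a1*, were low. Of 16 such genes 4 passed the filter, and the sum of all 16 was 5.30 to 15.2 CPM in RFP and 11.4 to 35.7 CPM in CRE libraries. *Cd68*, a lysosomal protein, had 2.69 and 8.37 CPM on average. Of the 4 tested, 2 were called higher, *Cd68* and *Tmem119*, the latter from 0.193 to 1.82 CPM, and the median log2 fold change of the 4 was 1.14. *Csf1r*, also tested, went the other way and did not pass, at 0.453 to 1.98 CPM in RFP and 0 to 1.54 CPM in CRE libraries. *Tmem119* held 0 to 10 counts in RFP libraries and passed the filter mainly through CRE libraries, and 12 markers were not tested. Nothing is therefore read from these calls or this median. Of all genes tested, 16.4% were called higher and 13.8% lower. *Cx3cr1*, *Itgam* and *Trem2* were each at 0 in 18 of the 21 libraries and *C1qa* in 14. Of 12 endothelial and mesenchymal markers 8 were tested, with 2 called higher, *Rgs5* and *Pdgfrb*, and 1 lower, *Kdr*, from 4.30 to 1.85 CPM. The sum of all 12 was 25.1 to 182 CPM in RFP and 84.2 to 489 CPM in CRE libraries (from 66.9 and 123.3 CPM without RFP 2-4 and CRE 1-3). *Rgs5*, a pericyte gene, was on average the largest part of it in the CRE libraries, at 25.3 and 147 CPM, and *Col3a1*, which did not pass the test, was at 11.6 and 32.5 CPM. In CRE 1-3, CRE 3-1 and CRE 3-4 other genes of the list were higher than *Rgs5*. The endothelial genes *Pecam1* and *Cldn5* were at 0 in 7 and 19 of the 21 libraries. None of 10 erythroid markers passed the filter, and the 9 of them that the tables list summed to 0.0834 to 3.13 CPM, with *Hbb-bs* at 0.0948 and 0.559 CPM and *Klf1* at 0.212 and 0.312 CPM. The part of the glial and mesenchymal RNA in the differences of the members was not tested.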

How the data were processed

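The authors prepared libraries from 300 ng of total RNA with Illumina Stranded mRNA Prep. Per the submitters' processing notes and the methods, reads were demultiplexed with bcl2fastq 2.20.0.422, aligned to GRCm39 (Ensembl release 110) with STAR 2.7.8a and assigned to genes with featureCounts 1.5.0-p1. The strand setting and the treatment of reads with several places were not given in the sources used here. The authors deposited raw counts per gene and library, without normalization.

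Comparisons were fitted with edgeR 4.0.16 under R 4.3.3 (filterByExpr, TMM, robust quasi-likelihood fit, Benjamini-Hochberg adjustment over all genes tested, threshold 0.05), in the 21 libraries of the study's count table. Methods names CRE 1-3 and CRE 3-3 as removed, which was an alternative. CPM used TMM factors over all 23 libraries, and correlations used log2(CPM + 0.5). Names, coordinates and canonical transcripts came from GENCODE M39 on GRCm39, a later release on the same build, and windows of 50 bases were compared between transcripts. Other values came from Python 3 with pandas and matplotlib.

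The 10 genes and all gene lists were chosen with earlier results of these data known. Named genes are the 10 members, *Nedd8*, *Nfe2l2*, *Keap1*, *Bach1*, *Ireb2*, *Aco1*, *Fbxl5* and *Alas1*, up to 3 called genes of smallest p per direction in each of 5 lists, the 2 most abundant genes of each of 6 marker lists, and the 2 genes most like *Hmox1*, *Fth1*, *Slc40a1* and *Tfrc*. *Cdip1*, *Hdac7*, *Gm36913*, *Sox9*, *Gja1*, *Tmem119*, *Csf1r*, *Pdgfrb*, *Kdr* and marker genes at 0 were named after their values were seen. Of the genes this rule names, 2 are not reported here. Alternatives, with DESeq2 1.42.0 among them, numbered 13 planned and 3 chosen after seeing the data. The 2 most alike libraries of a group still differed by a chi-square of 10.9 per gene, more than counting noise, so that none was a second run of another library. This does not tell separate preparations from a shared dish or RNA.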

Additional observations from a re-analysis of the deposited data

Results flagged for a closer look

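*Slc40a1* in RFP 3-1, at 13.2 CPM, lay far from the other RFP libraries, the nearest of which was RFP 3-4 at 7.26 CPM. The gap was 0.498 of the range of the 10 RFP libraries, above Dixon's critical value for a group of 10. Of the 10 members tested in this way 1 was marked. Chance marks about 1 in 20 such groups, so that 1 mark among 10 may be chance. RFP 3-2, outside the comparison, was higher still at 28.0 CPM, while RFP 3-3 had 1.74 CPM.

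The 2 libraries outside the comparison held members above the highest RFP library within it. CRE 3-3, with 1546796 counts in all and 1.83% from mitochondrial genes, had *Hmox1* at 289.9, *Blvrb* at 70.3, *Fth1* at 8291, *Ftl1* at 943, *Fech* at 62.1 and *Slc48a1* at 140.5 CPM. Its *Slc40a1*, at 2.05 CPM or 3 counts, was within the range of the RFP libraries, and its *Tfrc*, at 115 CPM, was below all of them. RFP 3-2, with 24.2% of its counts from *Rn18s-rs5*, a ribosomal RNA gene, had *Hmox2* at 47.4, *Blvra* at 9.88, *Blvrb* at 5.39 and *Slc40a1* at 28.0 CPM. The highest values of the same genes in the RFP libraries of the comparison were 45.6, 7.42, 4.13 and 13.2 CPM.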

How the results depend on the processing

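The log2 fold changes of all 10 members moved by less than the larger SD of log2 CPM in either group under each of 16 alternatives, and no called fold changed sign. That SD includes CRE 1-3, which widens it for members such as *Ftl1* and *Tfrc*, so that the measure is lenient for them. *Ftl1* ran from 0.30 without culture 1 to 0.74 with all 23 libraries, and *Tfrc* from 0.31 without culture 2 to 0.85 without culture 3. *Hmox1*, *Blvrb*, *Fth1* and *Slc40a1* were called under each of the 16 alternatives. The number of members called was 7, between 6 and 9 under the alternatives that kept the 3 cultures, and between 4 and 8 without a culture (4 without culture 2, when *Hmox2*, *Blvra* and *Ftl1* were lost). *Hmox2* was also lost without the filter on low counts and, with *Ftl1*, without culture 3. *Fech* and *Tfrc*, not called in the main fit, were called under 8 and 7 of 17 settings, the main fit included. For *Fech* these included DESeq2 and size factors of the DESeq2 type. Same-numbered CRE and RFP libraries had correlations of 0.037 to 0.13 by culture and -0.26 to 0.12 by repeat, not above 0.1 throughout, so that the numbers were not taken as pairs. With culture as a replicate block 7 members were called, and 7 with the repeat number as a replicate block, while other heme and iron genes went from 30 to 27 under either. These numbered 26 to 34 under the alternatives with the 3 cultures (31 without CRE 1-3 and 28 without RFP 2-4) and 19 to 23 without a culture. Members with a culture-dependent difference numbered 1 in the 19 libraries in place of 0, and members that differed between cultures in RFP numbered 1 in the 19 libraries and 1 with DESeq2 in place of 0. The cause was not tested. Over all genes, 2114 were called without culture 2 and 6920 without the filter on low counts, against 4370. Depth limits *Blvra*, *Blvrb* and *Slc40a1* most, whose RFP libraries held 5 to 128 counts each.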
